A study of Mus musculus with 12 samples.

Results

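The replication-dependent histone genes of the mouse clusters Hist1 to Hist4 encode the linker histone H1 and the core histones H2A, H2B, H3 and H4. They were chosen by name, as every gene whose older symbol starts with Hist1h, Hist2h, Hist3h or Hist4h, and no measured value entered that choice. RefSeq lists 70 such genes, 3 of them pseudogenes. Of these, 47 had a probe named through its RefSeq accession (51 probes in all) and 23 had none. The brightest probe of a gene was used, and 45 genes were tested among the 22744 genes tested on the array. By cluster they were 33 genes of Hist1, 9 of Hist2, 2 of Hist3 and 1 of Hist4, and by class 5 of H1, 14 of H2A, 10 of H2B, 8 of H3 and 8 of H4. A total of 41 of the 45 were well above background on all 12 arrays. H1f3 (Hist1h1d) was well above background on 1 array and H2bc23 (Hist1h2bq) on 0, and neither was tested.

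Splenic follicular B cells of C57BL/6J mice, male by the labels, were compared between 4 groups of 3 arrays each. These were Bach2-/- cells after 24 h, WT cells after 24 h, Bach2-/- cells at 0 h and WT cells at 0 h, and the 24 h cells had been cultured with 10 µg/mL of an anti-IgM Fab' that engages the B cell receptor. Bach2-/- mice lack Bach2, a transcriptional repressor of B cells, and the study asks why their follicular B cells divide poorly after this stimulus. The sources used here give neither the age of the mice nor how the Bach2 allele was disrupted. No group was cultured for 24 h without anti-IgM here, so culture and stimulus cannot be told apart. The labels do not say that the arrays of a group came from separate animals, so the p-values may reflect no more than technical spread among these samples.

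Replication-dependent histone genes lie in clusters, lack introns and are transcribed in S phase, when new DNA must be packaged. Npat and Casp8ap2 (FLASH) act in their transcription and early processing, and the U7 particle with Lsm10 and Lsm11 cuts their transcripts behind a stem-loop that Slbp binds in place of a poly(A) tail. When replication stops, uridylation by Tut4 and Tut7 starts the decay of these transcripts. Transcripts of some of these genes can instead be polyadenylated in cells that have left the cell cycle. Total RNA was labelled with Cy3, and the sources used here do not say whether the labelling was primed on poly(A) tails. Many of these genes are nearly identical in their coding parts, and the probe sequences were not used here. A probe named for 1 gene may therefore also have read its copies, and each gene name below stands for its probe.

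All values are on the log2 scaled signal, the log2 of the processed signal divided by its array's 75th percentile, and levels of different probes are not set against each other. That percentile was lowest on Bach2-/- 24 h array 2 (97.3) and highest on Bach2-/- 24 h array 1 (358), between 50.9% and 66.7% of the noncontrol spots of an array were well above background, and no noncontrol spot was saturated. Bach2 fell to -0.39 ± 0.54 in Bach2-/- cells at 24 h, against 3.37 ± 0.27 in WT cells, and to 0.96 ± 0.16 in Bach2-/- cells at 0 h, against 3.52 ± 0.28 in WT cells (SD, n = 3 each; adjusted p = 4.42e-05 and 0.00171). A second Bach2 probe was below background on all 6 Bach2-/- arrays and above it on all 6 WT arrays. By the scan date in the file headers, array 1 of every group formed a batch apart from the other 8 arrays. These batches are called slide 2 and slide 1 here, as names for scan dates only, and no slide label was read. Against the male label, Bach2-/- 0 h array 1 had none of 4 Y-linked genes above background, and the female-specific Xist was above it at both of its probes on all 4 slide 2 arrays and on Bach2-/- 0 h array 3. Of 10 listed B cell markers 9 had a probe, and all 9 were well above background on every array. The arrays in doubt are thus Bach2-/- 0 h array 1 for its label, and Bach2-/- 24 h array 2 for its low signal. Calls that end without both are named below.

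After 24 h the histone cluster genes did not move together. In Bach2-/- cells 6 of the 45 fell and 2 rose, and in WT cells 9 fell and 2 rose. With quantile normalisation or normexp correction the Bach2-/- counts were 6 lower and 1 higher, and without Bach2-/- 0 h array 3 or 24 h array 3 they were 5 lower and 0 higher. Of all 22744 genes, 2366 fell and 1745 rose with quantile normalisation, and 1238 fell and 922 rose with normexp. Without 0 h array 3, 1382 of 23084 genes fell and 869 rose, and without 24 h array 3, 1389 of 22852 fell and 971 rose. The members that fell in both genotypes were 6 genes, H1f2, H2ac18, H2aw, H2bc4, H2bu2 and H3c15, spread over every cluster but Hist4 and every class but H4. H3c8 was the gene that rose in both. Over all genes tested, 14% passed the test in Bach2-/- cells (5.92% higher and 8.11% lower) and 21.9% in WT cells (12.5% higher and 9.38% lower). The shares of histone genes that passed in either direction, 17.8% and 24.4%, were near those of all genes. By direction they were 4.44% higher and 13.3% lower in Bach2-/- cells, and 4.44% higher and 20% lower in WT cells. With quantile normalisation the WT counts were 15 lower and 3 higher, with a median change of -0.59. Over all 22744 genes, 2761 were lower and 2816 higher in that setting, with a median of 0.0007. The median change of the 45 was -0.21 in Bach2-/- cells and -0.22 in WT cells, against 0.07 and 0.04 over all genes, and the Bach2-/- median was 0.02 on slide 1 alone. The values at 24 h lay wholly above those at 0 h for 6 members in Bach2-/- cells and 3 in WT cells, and wholly below them for 11 in each genotype. Over all genes the shares without overlap were 11.8% higher and 14% lower in Bach2-/- cells, and 23.1% higher and 16.1% lower in WT cells.

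**Figure D1:**
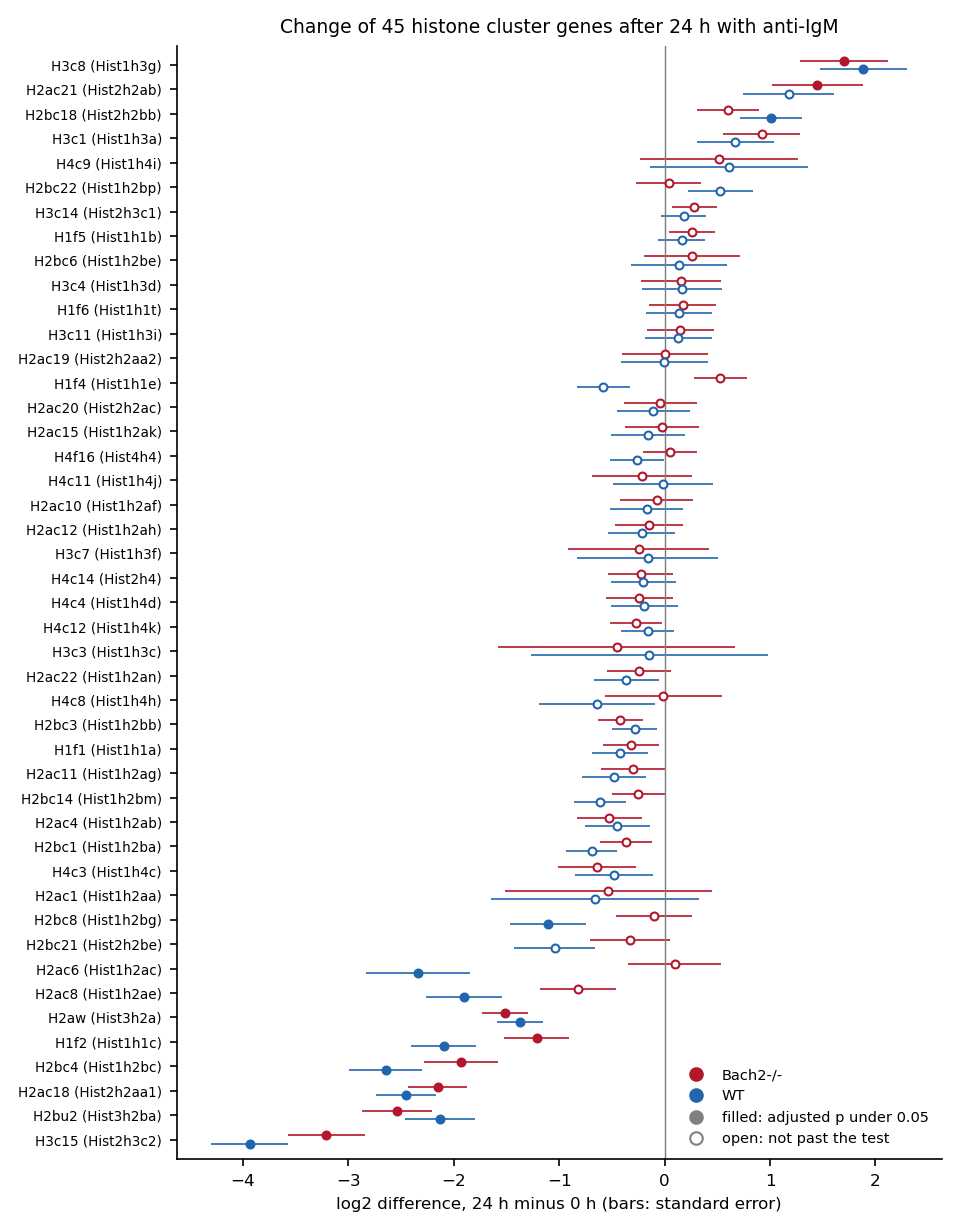
Change of the 45 tested histone cluster genes, as the log2 difference of 24 h minus 0 h with its standard error, in Bach2-/- cells (red) and WT cells (blue); filled points have an adjusted p under 0.05. Most genes lie near 0 in both genotypes, 6 genes lie far to the left in both, and H3c8 lies to the right.

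H3c15 (Hist2h3c2), which encodes histone H3, had the lowest fitted change in both genotypes, but its 24 h level was near background. Its log2 scaled signal was -3.01, -3.28 and -3.91 in Bach2-/- cells at 24 h, against 0.14, -0.41 and -0.31 at 0 h. In WT cells it was -3.40, -4.26 and -4.60 at 24 h, against -0.19, -0.53 and 0.27 at 0 h. All 6 arrays at 24 h lay below all 6 at 0 h, and at 24 h the probe was well above background on 2 of 3 Bach2-/- arrays and 1 of 3 WT arrays. The change was -3.21 ± 0.36 (SE; adjusted p = 0.000115) in Bach2-/- cells and -3.94 ± 0.36 (adjusted p = 3.74e-05) in WT cells. With normexp background correction, which draws dim probes together, it was -1.47 and -1.69, still past the test in both.

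H2bc4 (Hist1h2bc), a gene for the core histone H2B, followed the same order. It read 0.69, 0.97 and 0.74 in Bach2-/- cells at 24 h, against 2.64, 2.59 and 2.95 at 0 h. In WT cells it read 0.42, 0.04 and 0.58 at 24 h, against 2.16, 3.09 and 3.73 at 0 h. No 24 h array reached the lowest 0 h array. The changes were -1.93 ± 0.35 (adjusted p = 0.00285) in Bach2-/- cells and -2.65 ± 0.35 (adjusted p = 0.000377) in WT cells. Within slides the WT change was -3.10 on slide 1 and -1.74 on slide 2.

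H2ac18 (Hist2h2aa1), a gene for the core histone H2A, fell in a similar way. Its values were 1.48, 2.52 and 1.69 in Bach2-/- cells at 24 h, against 4.31, 3.84 and 4.0 at 0 h. In WT cells they were 1.42, 1.00 and 1.26 at 24 h, against 3.73, 3.72 and 3.58 at 0 h. The arrays of each time were close together, apart from Bach2-/- 24 h array 2, which was the highest at 24 h. The changes were -2.15 ± 0.28 (4.45-fold; adjusted p = 0.00032) in Bach2-/- cells and -2.45 ± 0.28 (5.48-fold; adjusted p = 0.000159) in WT cells.

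Both tested genes of the Hist3 cluster fell as well. H2bu2 (Hist3h2ba), which encodes an H2B, fell by 2.54 ± 0.33 on the log2 scale in Bach2-/- cells (adjusted p = 0.000313) and by 2.13 ± 0.33 in WT cells (adjusted p = 0.00109). H2aw (Hist3h2a), which encodes an H2A, fell by 1.51 ± 0.22 (adjusted p = 0.000636) and by 1.37 ± 0.22 (adjusted p = 0.00128). Their values on each array stand with the genotype comparison below, because they also differed between genotypes.

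H1f2 (Hist1h1c) encodes the linker histone H1.2, which binds DNA between nucleosomes. It read -0.54, -0.31 and -0.58 in Bach2-/- cells at 24 h, against 0.85, 0.19 and 1.18 at 0 h. In WT cells it read -0.29, -1.23 and -0.90 at 24 h, against 1.07, 1.32 and 1.49 at 0 h. Again the times did not overlap within a genotype. The change was -1.21 ± 0.31 (adjusted p = 0.0218) in Bach2-/- cells and -2.09 ± 0.31 (adjusted p = 0.000795) in WT cells. The Bach2-/- call ended without both doubted arrays (-1.24, adjusted p = 0.0707), while the other 5 genes that fell in Bach2-/- cells stayed past the test there. It also ended without any of 4 Bach2-/- arrays taken singly (adjusted p 0.0584 to 0.107), 0 h arrays 1 and 3 and 24 h arrays 1 and 3.

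**Figure D2:**
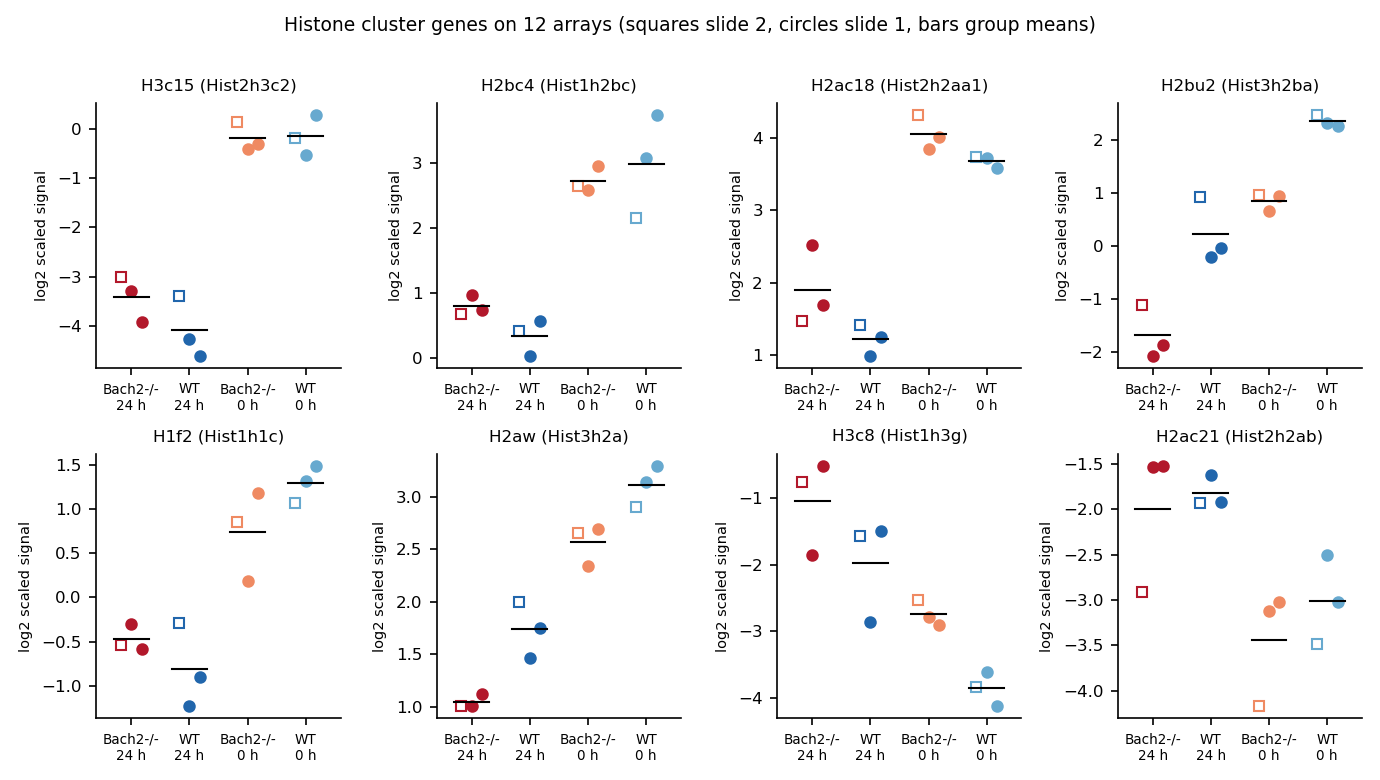
Log2 scaled signal of 8 histone cluster genes on each array, in the groups Bach2-/- 24 h, WT 24 h, Bach2-/- 0 h and WT 0 h; squares are slide 2, circles slide 1 and bars group means. H3c15, H2bc4, H2ac18, H2bu2, H1f2 and H2aw are lower at 24 h in both genotypes, H3c8 and H2ac21 are higher, and H2bu2 is lower in Bach2-/- cells than in WT cells at each time.

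A further 3 genes, all of Hist1, passed the test in WT cells and not in Bach2-/- cells. H2ac6 (Hist1h2ac, an H2A gene) fell by 2.34 ± 0.49 in WT cells (adjusted p = 0.00762), against a change of 0.10 ± 0.44 in Bach2-/- cells (adjusted p = 0.955), and the fit dropped the value of WT 24 h array 2, flagged as an outlier spot. It read -3.23, -3.16 and -4.34 in Bach2-/- cells at 24 h and -4.28 and -4.31 in WT cells at 24 h. At 0 h it read -3.79, -4.19 and -3.03 in Bach2-/- cells and -1.80, -1.37 and -2.69 in WT cells. The WT 0 h arrays thus stood above all others, and the probe was well above background on the 2 WT 24 h arrays that had a value.

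H2ac8 (Hist1h2ae, an H2A gene) fell by 1.90 ± 0.36 in WT cells (adjusted p = 0.00351), against a change of -0.83 ± 0.36 in Bach2-/- cells (adjusted p = 0.183). It read -4.58, -3.73 and -3.71 in Bach2-/- cells at 24 h, against -3.24, -3.60 and -2.72 at 0 h. In WT cells it read -4.22, -4.75 and -4.26 at 24 h, against -3.10, -2.42 and -2.01 at 0 h. The probe was well above background on 2 of 3 arrays in each 24 h group. The times did not overlap in either genotype, and with the replicate number as a block the Bach2-/- change passed too (adjusted p = 0.0389). H2bc8 (Hist1h2bg, an H2B gene) fell by 1.10 ± 0.36 in WT cells (adjusted p = 0.0492), against a change of -0.10 ± 0.36 in Bach2-/- cells (adjusted p = 0.94). Its WT fall came from slide 1, with -1.68 there and 0.05 on slide 2, and its call ended without any 1 of 4 WT arrays (adjusted p 0.08 to 0.169), arrays 2 and 3 of either time, and without both doubted arrays (adjusted p = 0.0599). With normexp correction the WT changes of these 3 genes were -0.76, -0.41 and -0.44, and none passed.

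H3c8 (Hist1h3g), an H3 gene, rose in both genotypes. It read -0.76, -1.84 and -0.51 in Bach2-/- cells at 24 h, against -2.53, -2.78 and -2.90 at 0 h. In WT cells it read -1.56, -2.86 and -1.49 at 24 h, against -3.83, -3.62 and -4.13 at 0 h. All 24 h arrays lay above all 0 h arrays of the same genotype. The change was 1.70 ± 0.42 in Bach2-/- cells (3.25-fold; adjusted p = 0.0172) and 1.89 ± 0.42 in WT cells (3.69-fold; adjusted p = 0.008). With normexp correction it was 1.02 in Bach2-/- cells and 0.74 in WT cells, where the call ended (adjusted p = 0.0636). The Bach2-/- call ended without 0 h array 2 or 3 or without 24 h array 1 or 3 (adjusted p 0.0567 to 0.0802).

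H2ac21 (Hist2h2ab), an H2A gene, rose by 1.45 ± 0.43 in Bach2-/- cells (adjusted p = 0.0462), and its change in WT cells was 1.18 ± 0.43 (adjusted p = 0.0748). It read -2.92, -1.54 and -1.52 in Bach2-/- cells at 24 h, against -4.17, -3.13 and -3.03 at 0 h. In WT cells it read -1.93, -1.63 and -1.92 at 24 h, against -3.49, -2.51 and -3.02 at 0 h. The slide 2 array was the lowest of its group in all 4 groups. With the replicate block both changes passed (adjusted p = 0.00131 and 0.00299), and without both doubted arrays the Bach2-/- change was 0.86 (adjusted p = 0.261). Its call also ended without any 1 of 5 Bach2-/- arrays (adjusted p 0.0629 to 0.172), all but 24 h array 1.

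H2bc18 (Hist2h2bb), an H2B gene, rose by 1.01 ± 0.29 in WT cells (adjusted p = 0.0298), with 2.11, 1.23 and 1.59 at 24 h, against 1.14, 0.54 and 0.22 at 0 h. In Bach2-/- cells it read 1.99, 2.31 and 2.14 at 24 h, against 1.54, 1.36 and 1.73 at 0 h, a change of 0.60 ± 0.29 (adjusted p = 0.243). The times did not overlap in either genotype. The WT call ended without any 1 of 4 WT arrays (adjusted p 0.0689 to 0.132), 0 h arrays 2 and 3 and 24 h arrays 1 and 3.

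Some of the largest changes that did not pass did so with the replicate number as a block, a fit in which 33.9% of all genes passed in Bach2-/- cells and 47.2% in WT cells. There the members past the test were 12 in Bach2-/- cells and 16 in WT cells. In Bach2-/- cells H3c1 (Hist1h3a, an H3 gene) changed by 0.92 ± 0.37 (adjusted p = 0.14, with the block 0.0396). H4c3 (Hist1h4c, an H4 gene) changed by -0.64 ± 0.37 there (adjusted p = 0.347). In WT cells H2bc21 (Hist2h2be, an H2B gene) changed by -1.04 ± 0.38 (adjusted p = 0.0739, with the block 0.000335). H2bc1 (Hist1h2ba), which encodes the testis form of H2B, changed by -0.69 ± 0.24 there (adjusted p = 0.0659, with the block 0.00739), and H3c1 by 0.67 ± 0.37 (adjusted p = 0.237). H2ac1 (Hist1h2aa), which encodes the testis form of H2A, changed by -0.53 ± 0.98 in Bach2-/- cells and -0.66 ± 0.98 in WT cells (adjusted p = 0.862 and 0.722, with the block 0.012 and 0.00264).

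Part of that spread moved with the slide. H2ac1, H3c3 (Hist1h3c) and H3c7 (Hist1h3f) were at least 1 log2 unit lower on slide 2 than on slide 1 in all 4 groups, and no member was as much higher there. H3c3, an H3 gene, read 0.95, 1.09, 1.29 and 1.07 on the slide 2 arrays of Bach2-/- 24 h, WT 24 h, Bach2-/- 0 h and WT 0 h, against 3.48 to 4.17 on slide 1. H3c3 and H3c7 were named for this after their values were seen. Of the 20 member calls over all comparisons, 19 had the same sign on both slides, H2bc8 in WT cells being the exception.

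By class, none of the 8 genes of histone H4 passed a response test, and their changes ran from -0.64 to 0.52 in Bach2-/- cells and from -0.64 to 0.61 in WT cells. Among the 5 H1 genes, 1 fell in each genotype, H1f2. Of 14 H2A genes, 2 fell and 1 rose in Bach2-/- cells and 4 fell in WT cells. Of 10 H2B genes, 2 fell in Bach2-/- cells, and 3 fell and 1 rose in WT cells. Of 8 H3 genes, 1 fell and 1 rose in each genotype. A total of 4 genes had a second probe, and those of H4c9 and H4c14 changed with another sign than the brightest in part. The H4c9 probes read changes of 0.52 and -0.05 in Bach2-/- cells and 0.61 and -0.62 in WT cells, the brightest first, and both genes were named for this after their values were seen. H1f6 (Hist1h1t), which encodes the testis form of H1, changed by 0.17 ± 0.31 in Bach2-/- cells and 0.14 ± 0.31 in WT cells.

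The 5 members of highest mean signal over the 12 arrays were all H2A genes, H2ac12 (Hist1h2ah), H2ac10 (Hist1h2af), H2ac15 (Hist1h2ak), H2ac11 (Hist1h2ag) and H2ac20 (Hist2h2ac). Their values ran from 7.78 to 8.59 in Bach2-/- cells at 24 h, 7.23 to 8.75 in WT cells at 24 h, 7.76 to 9.08 in Bach2-/- cells at 0 h and 7.67 to 8.71 in WT cells at 0 h. The 4 groups overlapped for each of them. Some of the 5 read nearly alike: in WT cells at 24 h H2ac10 read 8.69, 7.52 and 7.87, and H2ac15 read 8.66, 7.52 and 7.88. The 5 may therefore not be separate readings, and whether their probes read shared transcripts was not tested. Their changes after 24 h ran from -0.30 to -0.03 in Bach2-/- cells and from -0.48 to -0.11 in WT cells (adjusted p 0.317 to 0.984). The 95% intervals of these 5 changes lay between -0.97 and 0.74 in Bach2-/- cells and between -1.15 and 0.65 in WT cells, so a fall of 1 log2 unit lay outside all 5 intervals in Bach2-/- cells but not in WT cells. Their direction was not stable either: it turned for all 5 in Bach2-/- cells without both doubted arrays, to between 0.04 and 0.37.

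**Figure D3:**
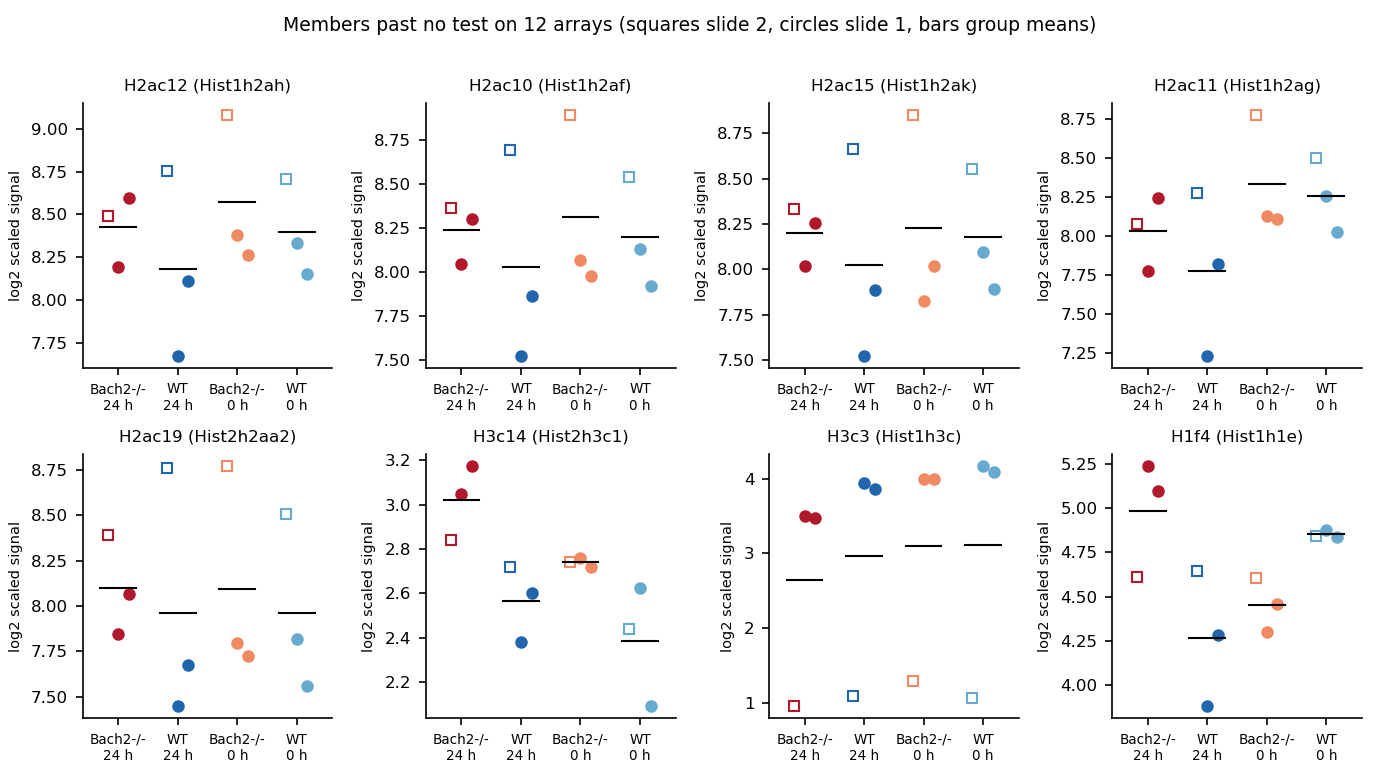
Log2 scaled signal on each array of 8 histone cluster genes that passed none of the tests, in the groups Bach2-/- 24 h, WT 24 h, Bach2-/- 0 h and WT 0 h; squares are slide 2, circles slide 1 and bars group means. H2ac12, H2ac10, H2ac15, H2ac11 and H2ac19 overlap between times, H3c14 does so in WT cells but not in Bach2-/- cells, H3c3 splits by slide, and H1f4 is higher at 24 h in Bach2-/- cells and lower in WT cells.

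Neighbouring genes of the Hist2 cluster differed in their change. From the start sites in RefSeq (GRCm38.p6), H3c15, H2ac19, H2ac18 and H3c14 lie within 7.56 kb on chromosome 3, with H3c15 and H2ac19 on the minus strand and H2ac18 and H3c14 on the plus strand. H3c15 and H2ac18 fell, as given above. H2ac19 (Hist2h2aa2), the close copy of H2ac18, changed by 0.00 ± 0.41 in Bach2-/- cells and by -0.00 ± 0.41 in WT cells, and its start lies 1.25 kb from that of H3c15. Its probe read 8.76, 7.45 and 7.67 in WT cells at 24 h, much like those of H2ac10 and H2ac15. Whether it read other H2A genes was not tested. H3c14 (Hist2h3c1), an H3 gene whose start lies 1.19 kb from that of H2ac18, changed by 0.28 ± 0.21 and 0.18 ± 0.21 (adjusted p = 0.523 and 0.636). H2ac19 and H3c14 were named for their place after their values were seen. The start sites of H2bu2 and H2aw on chromosome 11 lie 5.77 kb apart on the plus strand, and both genes fell.

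Of 62 members with a promoter window in the table, 10 pairs pointed away from each other with starts under 300 bases apart, and both genes of 3 pairs were tested. H2ac8 and H2bc8, 180 bases apart, changed by -0.83 and -0.10 in Bach2-/- cells and by -1.90 and -1.10 in WT cells. H2bc1 and H2ac1, 281 bases apart, changed by -0.36 and -0.53 in Bach2-/- cells and by -0.69 and -0.66 in WT cells. H2ac22 (Hist1h2an) and H2bc22 (Hist1h2bp), 240 bases apart and named for that place, changed by -0.24 and 0.04 in Bach2-/- cells and by -0.36 and 0.53 in WT cells. The pairs thus held changes of like and of unlike sign.

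The promoters of 5 of the 6 genes that fell in both genotypes are printed because these genes moved together, with that of H2ac19 beside that of its copy. Each is the 150 bases before the start site, 5′ to 3′ on the gene's strand, from RefSeq (GRCm38.p6), with matches to 5 motifs on either strand in capitals. The sixth gene is H2bc4. The motifs were CCAAT, bound by NF-Y; TATAAA, the TATA box; ATGCAAAT, the octamer bound by Oct1 and Oct2; AAACACA, found in promoters of H1 genes; and TGANTCA, the core of AP-1 and Bach2 sites. No pair of these motifs overlapped by its letters in the windows shown.
H2bu2, chr11:58948761-58948910, plus strand: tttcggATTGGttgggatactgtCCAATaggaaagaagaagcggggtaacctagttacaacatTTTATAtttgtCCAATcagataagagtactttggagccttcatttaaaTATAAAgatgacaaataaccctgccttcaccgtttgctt
H2aw, chr11:58954535-58954684, plus strand: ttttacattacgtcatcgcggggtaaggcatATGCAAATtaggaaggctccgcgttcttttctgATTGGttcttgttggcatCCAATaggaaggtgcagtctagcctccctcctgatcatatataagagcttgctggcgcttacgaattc
H1f2, chr13:23738657-23738806, plus strand: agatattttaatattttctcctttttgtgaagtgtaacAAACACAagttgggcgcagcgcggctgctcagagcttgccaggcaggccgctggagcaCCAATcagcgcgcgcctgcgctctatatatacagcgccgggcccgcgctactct
H3c15, chr3:96239128-96239277, minus strand: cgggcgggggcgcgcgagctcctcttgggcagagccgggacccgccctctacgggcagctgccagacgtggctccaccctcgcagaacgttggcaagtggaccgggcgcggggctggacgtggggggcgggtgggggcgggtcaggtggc
H2ac18, chr3:96245347-96245496, plus strand: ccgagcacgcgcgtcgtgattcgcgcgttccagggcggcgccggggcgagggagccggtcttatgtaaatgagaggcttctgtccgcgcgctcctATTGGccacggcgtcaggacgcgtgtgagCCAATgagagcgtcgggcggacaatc
H2ac19, chr3:96240375-96240524, minus strand: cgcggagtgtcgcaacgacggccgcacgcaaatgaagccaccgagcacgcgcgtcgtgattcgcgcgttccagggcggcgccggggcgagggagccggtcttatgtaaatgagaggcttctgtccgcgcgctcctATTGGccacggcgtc
The windows of 300 bases of H2ac18 and H2ac19 shared an identical run of 219 bases, and the probe of the one fell while that of the other changed by 0.00.

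Within these 150 bases, H2bu2 held 3 matches to CCAAT and 2 to TATAAA, H2aw held 2 to CCAAT and 1 to the octamer, and H2ac18 held 2 to CCAAT. H1f2 held 1 match to CCAAT and 1 to AAACACA. H3c15 held none of the 5, which says only that these letters are not in its window. Over windows of 300 bases (250 before and 50 after the start), CCAAT stood in 53 of the 62 members (85.5%), against 37.9% of all 27025 promoters in the table. TATAAA stood in 56.5% of members against 14.2% of all promoters, ATGCAAAT in 21% against 1.75%, and AAACACA in 14.5% against 7.14%. TGANTCA stood in 3 members (4.84%), against 7.93% of all promoters.

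Between genotypes 1 histone gene passed the test at 24 h and 0 at 0 h. H2bu2, the H2B gene of the Hist3 cluster, was lower in Bach2-/- cells at 24 h. The other 44 did not pass there, and 33 of the 45 differences were above 0, with a median of 0.19 against -0.06 over all genes and of 0.01 without WT 24 h array 2. Over all genes 3.21% passed at 24 h (0.945% lower), so 1 of 45 members, 2.22%, was near the background. At 0 h 0.747% of all genes passed and no member did. An unadjusted p under 0.05 was reached by 6 of the 45 members and by 1467 of the 22744 genes. The median difference was 0.04, against 0.03 over all genes.

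H2bu2 read -1.11, -2.07 and -1.87 in Bach2-/- cells at 24 h, against 0.92, -0.22 and -0.03 in WT cells. At 0 h it read 0.95, 0.67 and 0.93 in Bach2-/- cells, against 2.46, 2.32 and 2.27 in WT cells. The genotypes did not overlap at either time. The difference at 24 h was -1.91 ± 0.33 (3.76-fold lower; adjusted p = 0.00876), with -1.85 on slide 1 and -2.03 on slide 2. It was -1.72 without both doubted arrays (adjusted p = 0.0485), -1.16 with normexp correction (adjusted p = 0.0279), and failed the test when only the 6 arrays at 24 h were fitted (adjusted p = 0.0882). At 0 h the difference was -1.50 ± 0.33 (adjusted p = 0.0809), and with the replicate block it passed (adjusted p = 0.00415).

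The neighbour H2aw read 1.01, 1.01 and 1.13 in Bach2-/- cells at 24 h, against 2.0, 1.47 and 1.75 in WT cells. At 0 h it read 2.65, 2.34 and 2.70 in Bach2-/- cells, against 2.90, 3.13 and 3.29 in WT cells. Here too the genotypes did not overlap at either time, but the differences of -0.69 ± 0.22 at 24 h and -0.54 ± 0.22 at 0 h did not pass (adjusted p = 0.151 and 0.638). The 24 h difference passed with the replicate block (adjusted p = 0.019).

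Among the other large differences at 24 h, H3c8 differed by 0.94 ± 0.42, H3c1 by -0.72 ± 0.37 and H2ac6 by 0.72 ± 0.49 (adjusted p = 0.357, 0.445 and 0.602). H1f4 (Hist1h1e), which encodes the linker histone H1.4, differed by 0.71 ± 0.25 (adjusted p = 0.208, with the block 0.0493). It read 4.61, 5.24 and 5.10 in Bach2-/- cells at 24 h, against 4.64, 3.88 and 4.28 in WT cells, so that the slide 2 arrays nearly agreed. At 0 h H2ac6 differed by -1.72 ± 0.44 (adjusted p = 0.186), H3c8 by 1.12 ± 0.42 (adjusted p = 0.539), H3c1 by -0.97 ± 0.37 (adjusted p = 0.563) and H2bc18 by 0.91 ± 0.29 (adjusted p = 0.372). With the replicate block 4 members passed at 24 h, H1f4 higher and H2ac1, H2aw and H2bu2 lower, and 19.6% of all genes did. With it 3 passed at 0 h, H2ac1, H2bc21 and H2bu2, all lower, and 3.73% of all genes did.

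**Figure D4:**
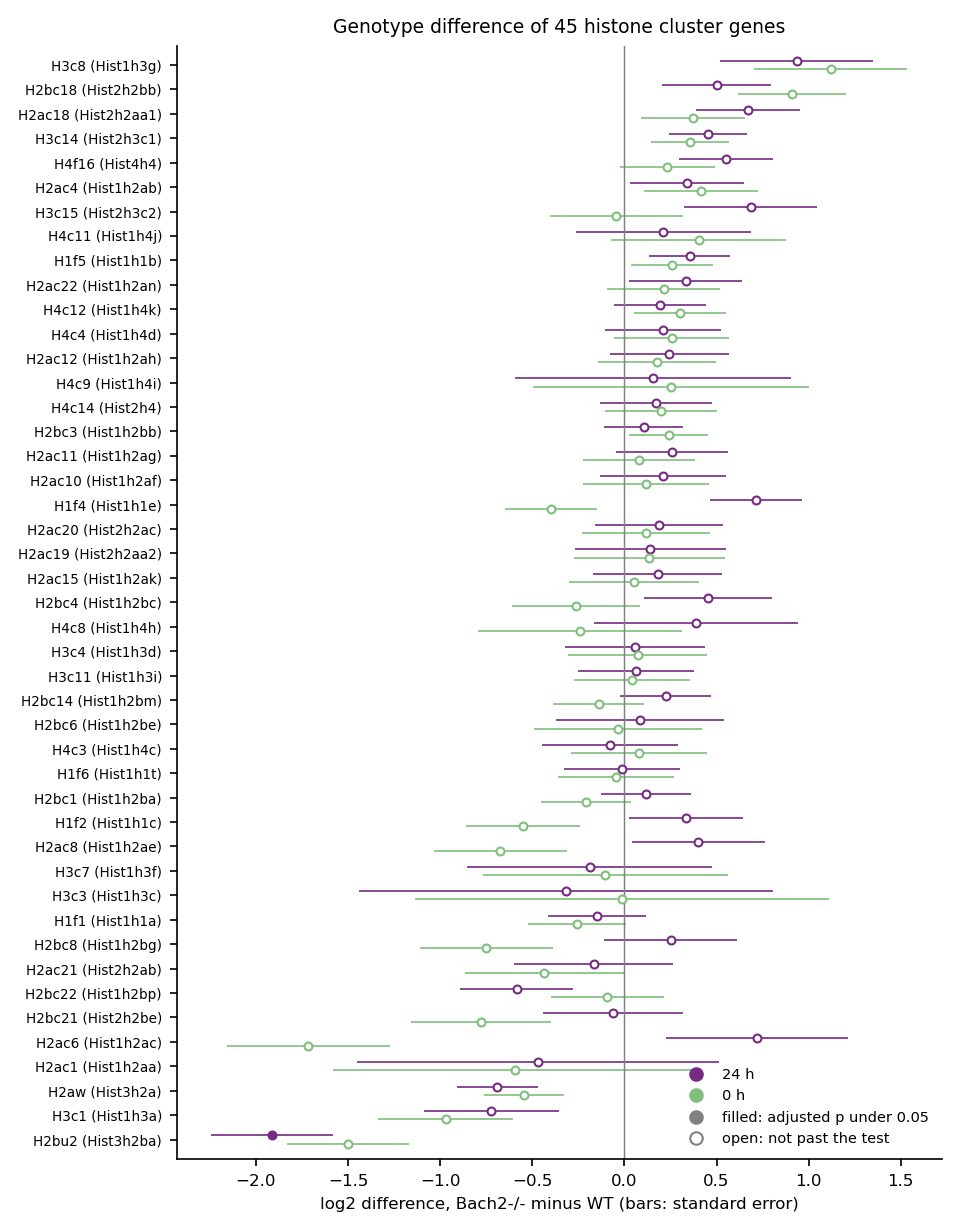
Difference of Bach2-/- minus WT cells for the 45 tested histone cluster genes, as log2 differences with standard errors, at 24 h (purple) and 0 h (green); filled points have an adjusted p under 0.05. H2bu2 at 24 h is the only filled point, and most other genes lie within 0.5 of 0.

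Markers of other cell types also differed between genotypes. Of 7 tested erythroid and platelet markers 3 were higher in Bach2-/- cells at 24 h (Alas2, Hba-a1 and Pf4), and none passed at 0 h, where 4 were higher with the replicate block. Of the 22744 genes 514 were higher at 24 h, and with the block 640 were higher at 0 h. Their summed signal, in multiples of the array's 75th percentile over 10 of 11 listed genes with a probe, was 7.88 to 26.9 in Bach2-/- cells and 8.07 to 9.51 in WT cells at 24 h, and 18.4 to 54.1 in Bach2-/- cells and 3.16 to 8.77 in WT cells at 0 h. Gata1, Klf1 and Itga2b were below background on all 24 h arrays. Neutrophil markers (9 of 10 with a probe) summed to 11.1 to 50.7 in Bach2-/- cells and 1.55 to 16.8 in WT cells at 24 h, and to 26.1 to 53.3 and 11.2 to 31.1 at 0 h, with Cxcr2 below background at 24 h. None of 8 tested neutrophil markers passed between genotypes, and with the block 3 were higher at each time (of the 22744 genes, 1850 at 24 h and 640 at 0 h). The part of these cells in the genotype differences was not tested.

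The other marker lists also differed in part between genotypes. At 24 h 3 of 7 tested plasma cell markers (Prdm1, Jchain and Cd28) and 3 of 10 T cell markers (Cd5, Cd28 and Cd8b1) were higher in Bach2-/- cells. Cd28 stands on both lists. Of the 22744 genes, 514 were higher and 215 lower at 24 h. Lyz2 was higher among 6 macrophage and monocyte markers, Cr2 was lower among 9 B cell markers, and no NK cell marker passed. At 0 h Prdm1 alone passed, and it was higher, as were 143 of the 22744 genes. These lists moved with time too. T cell markers (10 of 10 above background on every array) summed to 83.9 to 104 in Bach2-/- cells and 88.9 to 142 in WT cells at 24 h, against 32.8 to 39.2 and 32.1 to 44.8 at 0 h. The sum did not stand for the list: Lck rose in both genotypes, while 6 of the 10 changes were below 0 in Bach2-/- cells and 8 in WT cells, where 3 fell (median -0.50). Of the 22744 genes 2133 fell in WT cells. B cell markers summed to 214 to 350 in Bach2-/- cells and 410 to 738 in WT cells at 24 h, against 1103 to 1664 and 1038 to 1355 at 0 h. Plasma cell markers (7 of 8 above background on every array, Tnfrsf17 on none at 24 h) summed to 143 to 279 and 114 to 200 at 24 h, against 80.8 to 167 and 70.4 to 106 at 0 h. Here too the list was mixed, with Irf4 higher and Jchain lower in both genotypes and 4 of 7 changes below 0 in WT cells (median -0.47). NK cell markers (7 of 7 with a probe) summed to 1.47 to 3.6 in Bach2-/- cells and 1.44 to 3.23 in WT cells at 24 h, against 5.23 to 7.43 and 3.44 to 5.12 at 0 h, with Klrk1 below background on every array. Macrophage and monocyte markers (9 of 10 with a probe) summed to 6.24 to 16.6 and 7.72 to 11.1 at 24 h, against 7.25 to 11 and 3.96 to 13.6 at 0 h. In bulk samples fewer cells of a type and less RNA per cell cannot be told apart, and the part of these shifts in the histone changes was not tested.

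Whether the response differed between genotypes was tested directly, and no histone gene passed, against 0.343% of all genes. An unadjusted p under 0.05 was reached by 2 of the 45 members and by 1775 of the 22744 genes. The median difference of responses was 0.10, against -0.09 over all genes. H2ac6 had the largest, 2.44 ± 0.66 (adjusted p = 0.279), followed by H1f4 with 1.11 ± 0.35 (adjusted p = 0.381) and H2ac8 with 1.07 ± 0.51 (adjusted p = 0.665). H2bc8 and H1f2 had 1.00 ± 0.51 and 0.88 ± 0.44 (adjusted p = 0.704 and 0.695). With the replicate block none passed either, and 5.09% of all genes did. The intervals are wide: for H2bu2 the difference of responses lay between -1.44 and 0.62, and for H3c15 between -0.40 and 1.85.

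Genes of the same pathway were read from lists beside the histone genes. Of 34 genes of S phase and DNA replication, 1 rose and none fell in Bach2-/- cells, and 22 rose and none fell in WT cells, with medians of 0.71 and 1.45. That is 2.94% and 64.7% of the list, against 5.92% and 12.5% of all genes higher. Orc1, a subunit of the origin recognition complex, rose by 2.11 ± 0.57 in Bach2-/- cells (adjusted p = 0.0281) and by 4.39 ± 0.57 in WT cells (adjusted p = 0.00034), although its probe was well above background on 2 of 3 Bach2-/- and 1 of 3 WT arrays at 0 h. In WT cells Gins2, of the replicative helicase, rose by 2.87 ± 0.70 (adjusted p = 0.0127), Cdc6, which loads that helicase, by 2.65 ± 0.63 (adjusted p = 0.0117) and Mcm10, which helps to activate it, by 2.21 ± 0.55 (adjusted p = 0.0141). With the replicate block 15 of the 34 rose in Bach2-/- cells and 29 in WT cells (44.1% and 85.3%, against 3871 and 6345 of the 22744 genes). Between genotypes at 24 h none of the 34 passed (median -0.68), and with the block 15 were lower in Bach2-/- cells and 1 was higher. Of the 22744 genes 2619 were lower and 1850 higher there with the block. No difference of responses passed for this list (median -0.78), although Gins2 did with the block (adjusted p = 0.0443).

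**Figure D5:**
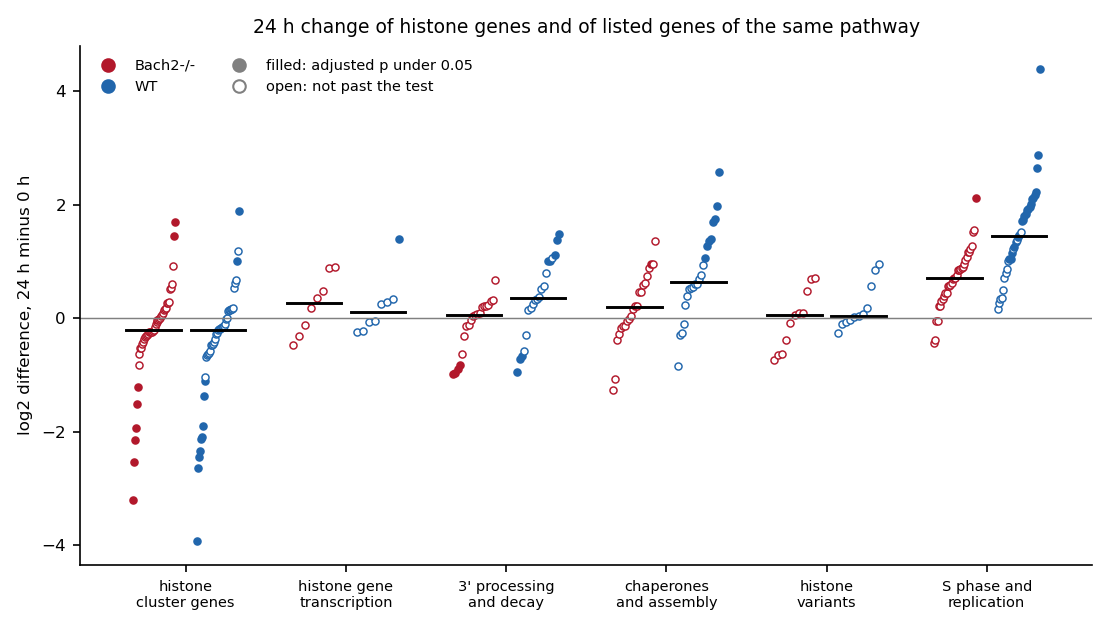
Log2 difference of 24 h minus 0 h for each tested histone cluster gene and each tested gene of 5 pathway lists, in Bach2-/- cells (red) and WT cells (blue); bars are medians and filled points have an adjusted p under 0.05. The histone cluster genes have medians of -0.21 and -0.22, and the S phase and replication genes 0.71 and 1.45.

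Of 22 histone chaperones and assembly factors, 1 rose in Bach2-/- cells and 8 rose in WT cells, with medians of 0.19 and 0.64, and none fell. These are 4.55% and 36.4% of the list, against 5.92% and 12.5% of all genes higher. With the block 7 rose and 2 fell in Bach2-/- cells, and 14 rose and 1 fell in WT cells. Of the 22744 genes 3871 rose and 3839 fell in Bach2-/- cells with the block, and 6345 rose and 4401 fell in WT cells. The subunits of CAF-1, which places new H3 and H4 behind the replication fork, changed in WT cells by 2.57 ± 0.47 (Chaf1a, adjusted p = 0.00299) and 1.74 ± 0.45 (Chaf1b, adjusted p = 0.0173). In Bach2-/- cells they changed by 1.35 ± 0.47 and 0.96 ± 0.45 and passed with the replicate block alone (adjusted p = 0.0897 and 0.219, with the block 0.0115 and 0.0138). Nasp, a chaperone of free H3 and H4, rose by 1.70 ± 0.28 in WT cells (adjusted p = 0.00166), against a change of 0.62 ± 0.28 in Bach2-/- cells (adjusted p = 0.208, with the block 0.0428).

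Mms22l, which acts at stalled replication forks, rose in both genotypes, by 0.96 ± 0.25 in Bach2-/- cells and 1.27 ± 0.25 in WT cells (adjusted p = 0.024 and 0.00419). Ipo4, which imports H3 and H4 with Asf1, rose by 1.98 ± 0.40 in WT cells, and Asf1b, the chaperone itself, changed by 0.94 ± 0.44 there (adjusted p = 0.00504 and 0.158, the second with the block 0.00962). Between genotypes Dek, a chromatin protein and H3 chaperone, was lower in Bach2-/- cells at 24 h by -1.77 ± 0.42 (adjusted p = 0.0452). It was 1 of the 22 (4.55%), against 0.945% of all genes lower. With the block 6 of the 22 were lower at 24 h (27.3%, against 2619 of the 22744 genes lower). With it the difference of responses passed for Dek and Ipo4, both below 0, as for 726 of the 22744 genes.

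Of the 8 tested genes of histone gene transcription, none passed in Bach2-/- cells, where 3 rose with the block (Npat, Ccne1 and Hinfp). With the block 3871 of the 22744 genes rose there. Ccne1, the cyclin whose kinase phosphorylates Npat, rose in WT cells by 1.39 ± 0.34 (adjusted p = 0.0136). It was 1 of the 8 (12.5%), and 12.5% of all genes rose in WT cells. Npat was below background on all 3 Bach2-/- 0 h arrays, so no fold is given there. Its change in Bach2-/- cells did not pass (adjusted p = 0.288, with the block 0.00885), and the times overlapped. In Bach2-/- cells it read -4.68 on 24 h array 1 and -4.46 on 0 h array 3. Npat changed by -0.24 ± 0.47 in WT cells (adjusted p = 0.801). Casp8ap2 changed by 0.18 ± 0.40 and 0.33 ± 0.40 (adjusted p = 0.89 and 0.652). Hinfp, which activates H4 genes, changed by 0.49 ± 0.40 in Bach2-/- cells and passed with the block alone (adjusted p = 0.564, with the block 0.047).

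Of 20 genes of histone mRNA 3′ processing and decay, none rose and 4 fell in Bach2-/- cells, and 5 rose and 3 fell in WT cells. In Bach2-/- cells 20% of the list fell, against 8.11% of all genes. In WT cells 25% rose and 15% fell, against 12.5% and 9.38% of all genes. Between genotypes none passed, and with the block 4 were lower in Bach2-/- cells at 24 h (20%, against 2619 of the 22744 genes). With it the difference of responses passed below 0 for Snrpb and Snrpd3 (10%, against 726 of the 22744 genes). Tut4, Tut7 and Pnrc2, of the decay step, fell in both genotypes. Tut4 fell by 0.83 ± 0.20 in Bach2-/- cells and 0.95 ± 0.20 in WT cells (adjusted p = 0.0145 and 0.0057), Tut7 by 0.96 ± 0.20 and 0.67 ± 0.20 (adjusted p = 0.0074 and 0.0362) and Pnrc2 by 0.91 ± 0.20 and 0.73 ± 0.20 (adjusted p = 0.0097 and 0.023). Cpsf2, of the cleavage complex, fell by 0.98 ± 0.23 in Bach2-/- cells (adjusted p = 0.0135), against a change of -0.57 ± 0.23 in WT cells (adjusted p = 0.1, with the block 0.0116). The genes that rose in WT cells were Snrpf, Snrpd3, Snrpe and Snrpg, Sm proteins that the U7 particle shares with spliceosomal particles, and the exonuclease Eri1, by 1.00 to 1.48. Slbp changed by -0.12 ± 0.58 in Bach2-/- cells and 0.51 ± 0.58 in WT cells, Lsm10 by 0.09 ± 0.31 and 0.14 ± 0.31, and Lsm11 by 0.24 ± 0.46 and 0.80 ± 0.46, and none passed (adjusted p 0.265 to 0.955), although Lsm11 did in WT cells with the block (adjusted p = 0.0102).

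The histone variants made outside S phase, 11 tested of 13 listed, passed no response or genotype test. With the block 3 were lower in Bach2-/- cells at 24 h (Cenpa, H3f3a and H2ax), 3 fell in Bach2-/- cells (H2az2, H3f3a and Cenpa) and 2 rose in WT cells (H2az1 and Macroh2a1). Of the 22744 genes, 2619, 3839 and 6345 did so with the block, in that order. H2az1, the H2A.Z gene, changed by 0.47 ± 0.36 in Bach2-/- cells and 0.96 ± 0.36 in WT cells (adjusted p = 0.526 and 0.0855, the second with the block 0.00203). H3f3a, which encodes H3.3, changed by -0.65 ± 0.23 and -0.03 ± 0.23 (adjusted p = 0.0967 and 0.962, with the block 0.0145 in Bach2-/- cells). H3f3b, the other H3.3 gene, changed by 0.08 ± 0.38 and -0.08 ± 0.38. H2ax, the variant phosphorylated at DNA breaks, changed by -0.39 ± 0.45 and 0.18 ± 0.45. H1f0, the linker histone of resting cells, was not tested. The medians of these variants were 0.05 in Bach2-/- cells and 0.03 in WT cells, against -0.21 and -0.22 for the histone cluster genes.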

How the data were processed

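Total RNA of 12 samples was hybridised to 12 one-colour Agilent arrays, per the labels. Spot intensity values (processed signal) were made by the authors with Agilent Feature Extraction 10.7.3.1, per the file headers, which name mm9. The deposited series matrix holds log2 values whose scale and centring are unstated. Its column medians were -0.27, 0.49 and 0.07 in Bach2-/- cells at 24 h, -0.27, 0.11 and 0.01 in WT cells at 24 h, -0.26, -0.10 and -0.03 in Bach2-/- cells at 0 h and -0.04, 0.16 and 0.01 in WT cells at 0 h. Its correlation with the scanner values, over probes, was at least 0.9988, and it served as an alternative. Per-sample columns left unused numbered 0.

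Control and outlier spots were left out, signals were divided by the array's 75th percentile, floored at 0.01, put on the log2 scale and averaged per probe. Probes well above background on all 3 arrays of a group were kept, with the brightest per gene. limma 3.58.1 (R 4.3.3) was fitted to the 4 group means over 12 arrays (residual df 8) with Benjamini-Hochberg adjustment over 22744 genes and a threshold of 0.05. The number of arrays limits the precision. Exact permutation of 3 against 3 arrays cannot go below p = 0.1 and was not used. The fit was tested on simulated data.

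Same-numbered arrays deviated together (18 pairs, r 0.467 to 0.890), other numbers less on the same slide (0.246 to 0.643) and oppositely across slides (-0.816 to -0.416). The first 2 of these ranges overlap, and all arrays numbered 1 share slide 2, so number and slide are in part the same. Deviations within a group of 3 arrays sum to 0, so the opposite sign across slides was in part fixed in advance. The sample titles give the numbers but state no pairing. A pairing by number was taken from these data for a second fit. That fit, with the number as a block, stands beside the histone results whose call it changed, and as counts for the lists. Alternatives were quantile and normexp processing, the series matrix, filters, probe averaging, slides and left-out arrays. The members, lists and tests were chosen with earlier results of these data known. Named members passed a test, were among the 5 largest changes that did not, or had the 5 highest means. Named list genes passed a test (at most 6 per direction) or belonged to a short set of processing, chaperone and variant genes.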

Additional observations from a re-analysis of the deposited data

Results flagged for a closer look

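H1f4 (Hist1h1e), a gene of the linker histone H1, was read in pairs of same-numbered arrays, a pairing that the sample titles do not state. Its change was above 0 in each Bach2-/- pair, but by only 0.0071 in pair 1, and below 0 in each WT pair. Its changes, 24 h minus 0 h on the log2 scale, were 0.0071, 0.94 and 0.64 in Bach2-/- cells and -0.20, -0.998 and -0.55 in WT cells. The difference of the responses was 1.11 ± 0.35 (SE), and it did not pass the test (limma, adjusted p = 0.381, with the replicate block 0.0684). The smallest change in each genotype was that of the slide 2 arrays.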

How the results depend on the processing

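The 3 arrays per group and dim probes limit these results, and near-identical gene copies limit what a probe names. Of 20 member calls, 11 passed under every alternative run (H2bc4, H2ac18, H3c15, H2aw and H2bu2 in both genotypes and H1f2 in WT cells). For the genotype difference at 24 h, with 1 member past the test, 4 passed with the replicate block, 4 with the slide as a block, 2 on slide 1 alone and 0 when only the compared groups were fitted. Of the 22744 genes, 1530 were higher and 2064 lower with the slide block, against 514 and 215 in the main fit. On slide 1 alone 565 of 23412 genes were higher and 247 lower, and with only the compared groups 280 and 56 of 21333. At 0 h, with 0 members past the test, 3 passed with the replicate block, 3 with the slide block, and 1 each with normexp correction, on slide 1 alone and when only the compared groups were fitted. Of the 22744 genes, 546 were higher and 181 lower at 0 h with the slide block, and 63 and 9 with normexp, against 143 and 27. For the response in Bach2-/- cells, 5 to 7 members passed when 1 array was left out, against 8, and 12 with the replicate block. For the response in WT cells, 18 passed with quantile normalisation, 7 with normexp and 17 with the slide block, against 11, and 16 with the replicate block. The counts over all 22744 genes moved with these settings too. In WT cells 2816 genes rose and 2761 fell with quantile normalisation, and 2072 rose and 1307 fell with normexp. With the slide block 6081 rose and 4176 fell, against 2852 and 2133 in the main fit. With the replicate block 33.9% of all genes passed in Bach2-/- cells and 47.2% in WT cells, against 14% and 21.9%. Beside the calls given with the block in the results, the block also brought H3c3 in Bach2-/- cells (adjusted p = 0.0324) and H2bc14 in WT cells (adjusted p = 0.0347) past the test, and it changed no other call of a member. Changes within slide 2 were read without a test, since it holds only array 1 of each group. Reading them was chosen after the data were seen. In all, 927 values kept their direction and side of the threshold or moved by less than the spread, 45 were weaker, 32 stronger and 32 reversed, and the causes were not tested.

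H2ac6 at 24 h between genotypes turned to -0.21 with the series matrix values. The other reversals were of H2ac1, whose main changes had an SE of 0.98, and of the 5 brightest genes, whose changes were near 0. On slide 1 alone the response in Bach2-/- cells turned to 0.0697 (H2ac12), 0.15 (H2ac10), 0.22 (H2ac15) and 0.20 (H2ac20), and without both doubted arrays to 0.22 (H2ac12), 0.31 (H2ac10), 0.37 (H2ac15), 0.0439 (H2ac11) and 0.31 (H2ac20). With 1 array left out, the response of H2ac1 ran from -1.38 to 0.28 in Bach2-/- cells and from -1.39 to 0.17 in WT cells. The genotype difference at 24 h then ran from -0.00895 to 0.53 (H2ac12), -0.0419 to 0.54 (H2ac10), -0.0701 to 0.499 (H2ac15), -0.0143 to 0.51 (H2ac11) and -0.0244 to 0.52 (H2ac20), the lowest being without WT 24 h array 2. The response in Bach2-/- cells ran from -0.305 to 0.102 (H2ac12), -0.24 to 0.21 (H2ac10), -0.23 to 0.28 (H2ac15) and -0.23 to 0.25 (H2ac20). The response in WT cells ran from -0.51 to 0.03 (H2ac12), -0.50 to 0.0823 (H2ac10), -0.48 to 0.0936 (H2ac15) and -0.44 to 0.11 (H2ac20).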
